A study of Mus musculus with 12 samples.

Results

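The 6 genes described here encode the receptors by which neutrophils are kept in the bone marrow, let out of it and drawn to a site of injury. They were chosen by name from the 34745 genes of the deposited table: Cxcr4, Cxcr2, Fpr1, Fpr2, C5ar1 and Ptafr. Their RNA was measured in total femoral bone marrow cells of 12 ICR mice, in 4 groups of 3 (normal, model, QJSB and leucogen), by sequencing of RNA after removal of ribosomal RNA. The study asked whether QJSB, a herbal granule used against low leucocyte counts, acts on mice with cyclophosphamide-induced leucopenia, with leucogen as the positive control drug. The deposited columns are headed Blank, Model, Positive and Stilbene. Blank was taken to be the normal group and Positive the leucogen group from what the words mean, which left Stilbene as QJSB.

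All mice were male and of the outbred ICR stock, so mice of a group are not genetically identical. The model, QJSB and leucogen groups all received cyclophosphamide, a DNA alkylating drug toxic to dividing marrow cells, by intraperitoneal injection at 80 mg/kg per day on days 5 to 7. The QJSB group was also given the granule by mouth at 3 g/kg per day, and the leucogen group was given leucogen by mouth at 20 mg/kg per day, each for 1 week. The normal and model groups received saline in place of a drug, and the normal group received no cyclophosphamide. There was no group given a drug without cyclophosphamide. The mice were sampled at 1 time point, and each library is 1 mouse, so the p-values given here measure the spread between mice.

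CXCR4 binds CXCL12 made by marrow stroma and holds neutrophils and their precursors in the marrow, while CXCR2 binds ELR chemokines such as CXCL1 and CXCL2 and promotes release into blood. As neutrophils mature they carry more CXCR2 and less CXCR4, and the balance of these receptors is a known control of their exit. FPR1 and FPR2 sense formylated peptides from bacteria and mitochondria, C5AR1 senses the complement fragment C5a, and PTAFR senses platelet-activating factor. All are receptors that couple to G proteins, and several are also carried by monocytes, macrophages or, for CXCR4, by B cell precursors and stem cells.

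The promoters of the chemokine receptor pair and of the formyl peptide receptor pair are shown because those 4 genes carried most of the differences described below. Each sequence is the 150 bases before the RefSeq start on GRCm38.p6, written 5′ to 3′ on the strand of the gene. Capitals mark matches, on either strand, to GAGGAA (the PU.1 core), TTNNGNAA (the C/EBP core), TATAAA (the TATA box), the GC box motif GGGCGG, or the CCAAT box.
Cxcr4 (chr1:128592300-128592449, minus strand): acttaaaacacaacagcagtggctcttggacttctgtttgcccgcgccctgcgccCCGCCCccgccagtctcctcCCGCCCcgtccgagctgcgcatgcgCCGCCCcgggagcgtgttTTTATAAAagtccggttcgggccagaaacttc
Cxcr2 (chr1:74153844-74153993, plus strand): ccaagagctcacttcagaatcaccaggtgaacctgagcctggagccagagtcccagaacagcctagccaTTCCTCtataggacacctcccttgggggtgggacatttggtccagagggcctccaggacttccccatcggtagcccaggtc
Fpr1 (chr17:17883940-17884089, minus strand): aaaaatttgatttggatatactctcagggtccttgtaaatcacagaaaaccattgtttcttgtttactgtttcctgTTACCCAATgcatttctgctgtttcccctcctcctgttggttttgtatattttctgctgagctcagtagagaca
Fpr2 (chr17:17887674-17887823, plus strand): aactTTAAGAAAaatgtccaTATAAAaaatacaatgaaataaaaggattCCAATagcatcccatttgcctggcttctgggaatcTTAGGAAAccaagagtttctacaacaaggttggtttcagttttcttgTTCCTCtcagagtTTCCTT

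Over the window of 250 bases before and 50 after the start, the Cxcr4 promoter held 3 GC boxes, and 2 TATA box matches that overlap each other on opposite strands. The Cxcr2 promoter held 2 PU.1 cores, of which 1 lies past the start and is not printed, and 0 GC boxes. Fpr1 and Fpr2 held 3 C/EBP cores each, and Fpr2 also held 1 PU.1 core. In Fpr1 the printed C/EBP match runs into the CCAAT match, and in Fpr2 the last capitals begin a C/EBP match that ends past the start. The GC content of the printed bases was 63.3% for Cxcr4, 58.7% for Cxcr2, 38.0% for Fpr1 and 34.7% for Fpr2. Among 32817 RefSeq promoter windows of 300 bases, 28.3% held a PU.1 core, 40.7% a C/EBP core, 13.6% a TATA box, 35.6% a GC box and 37.4% a CCAAT box, so each of these matches is common and describes the letters only.

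In the deposited coordinates, which equal those of the GENCODE M21 annotation, Cxcr4 (ENSMUSG00000045382) lies at chr1:128588199-128592293 on the minus strand and Cxcr2 (ENSMUSG00000026180) at chr1:74153989-74161246 on the plus strand. Fpr1 (ENSMUSG00000045551, chr17:17876471-17883940, minus strand) and Fpr2 (ENSMUSG00000052270, chr17:17887824-17893952, plus strand) are neighbours, 3883 bases apart, that are transcribed away from each other. C5ar1 (ENSMUSG00000049130) lies at chr7:16246743-16259540 on the minus strand and Ptafr (ENSMUSG00000056529) at chr4:132564067-132582683 on the plus strand. The annotated transcripts of the 6 genes have 2 or 3 exons. The longest run shared by transcripts of Fpr1 and Fpr2 is the following 50 bases, in capitals throughout because all of it is shared. It lies in the coding part of both, at chr17:17877280-17877329 in Fpr1 and chr17:17893116-17893165 in Fpr2.
Fpr1 and Fpr2 shared run: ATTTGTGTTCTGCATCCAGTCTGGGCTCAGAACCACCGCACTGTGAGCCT

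That run is 1 of the 1275 stretches of 50 bases in Fpr1 transcripts, or 0.0784%, so reads of Fpr1 and Fpr2 can be told apart almost everywhere. Fpr2 shared 31.5% of its stretches with transcripts of other genes, which were Fpr3, the gene model Gm5966 and Fpr1. Fpr3, which Fpr2 overlaps on the same strand, had 0 to 6 counts per library against 614 to 4235 for Fpr2. Gm5966 was not found by that name among the genes of the deposited table. How the authors counted reads that match several genes is not given in the sources used here, so the level of Fpr2 is less certain than that of Cxcr4 and C5ar1, which shared 0 stretches. Cxcr2 shared 4.01% and Ptafr 1.59%.

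Library totals ran from 11172547 to 18545198 counts, and members had between 81 counts (Fpr1 at its lowest) and 5823 counts (Cxcr4 at its highest) in a library. Values are given as CPM, counts scaled to library size with TMM factors, and between genes as FPKM, the deposited measure per length of transcript. Replicates differed by 10.9 to 107 times the chi-square per degree of freedom that counting error alone gives, so the spread between mice, not depth, set the precision. Markers of other marrow cells differed between groups. From the normal to the model group the mean log2 CPM of 8 mature B cell markers was 6.66 and 0.76, of 12 pre-B cell markers 6.08 and 1.59, of 8 erythroid markers 10.78 and 5.25, of 9 eosinophil markers 6.08 and 2.50, and of 9 T and NK cell markers 3.09 and 0.97. Over the same groups it was 5.79 and 6.74 for 9 monocyte markers, 4.59 and 4.12 for 9 macrophage markers, 4.35 and 4.92 for 8 stem and progenitor markers, 4.16 and 4.33 for 8 stromal and endothelial markers and 8.07 and 7.58 for 8 proliferation markers. The macrophage mean hides a split. Its 9 genes had a median log2 fold change of -1.4, beside 0.02 over all genes tested, while Gpnmb went from 0.282 to 23.8 CPM. The T and NK cell mean is also mixed, with 8 markers lower in model than in normal and 1 higher. The higher marker was Nkg7 (20 CPM in normal and 103 in model), which is also among the early neutrophil markers given below. In QJSB and leucogen the B cell, pre-B cell, erythroid and eosinophil markers lay near or under their level in model. T and NK cell markers were at 0.80 in QJSB and 1.14 in leucogen. The 6 of them tested in leucogen against model had a median log2 fold change of 0.68. The share of counts in Gm26917, a ribosomal RNA-like gene model, was 1.21% to 2.08% in the normal and leucogen groups and 2.96% to 4.88% in the model and QJSB groups.

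Late neutrophil RNA also differed between libraries. The mean log2 CPM of 14 late neutrophil markers, which include the granule genes Ltf, Camp, Ngp and Mmp9, was 9.54, 9.49 and 9.37 in the normal libraries, 6.67, 8.92 and 8.16 in model, 7.33, 10.21 and 9.64 in QJSB, and 10.37, 10.60 and 10.47 in leucogen. Model 1 and QJSB 1 were the lowest libraries of their groups and of all 12. The summed level of the list was 19700 to 23300 CPM in normal, 4920 to 20600 in model, 7500 to 38900 in QJSB and 50200 to 59800 in leucogen, and none of the 14 genes was at 0 in any library. The 9 early neutrophil markers, genes of promyelocytes such as Mpo and Elane, ran the other way against normal, with means of 5.73 ± 0.23 in normal, 8.52 ± 0.14 in model, 8.56 ± 0.07 in QJSB and 7.89 ± 0.16 in leucogen (SD, n = 3). The 10 mature surface and cytokine markers, such as Csf3r and Il1b, were narrower in range, at 6.35 ± 0.08, 5.47 ± 0.36, 5.73 ± 0.47 and 5.83 ± 0.10. The part of these shifts in the receptor results was not tested.

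**Figure D1:**
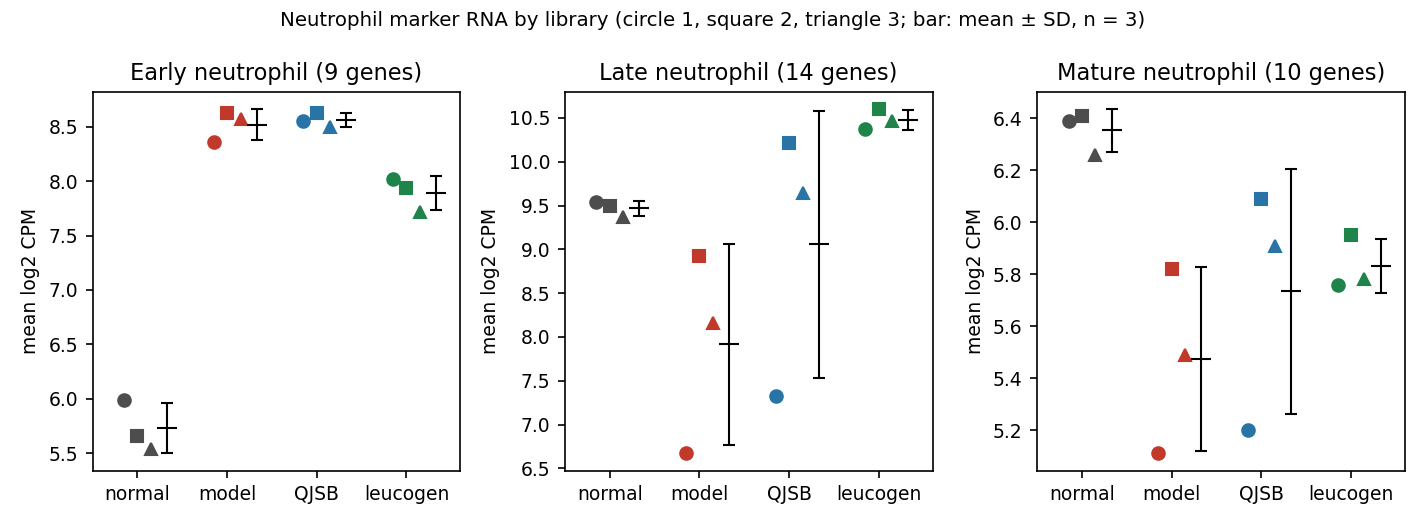
Mean log2 CPM of early (9 genes), late (14) and mature (10) neutrophil markers in each of the 12 libraries (circle, square and triangle are mice 1, 2 and 3 and bars are mean ± SD, n = 3). Late marker RNA spans 6.67 to 8.92 in model and 7.33 to 10.21 in QJSB, and is tight in normal (9.37 to 9.54) and leucogen (10.37 to 10.60).

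Cxcr4, the retention receptor, was the member that varied least. It stood at 354, 320 and 314 CPM in the normal libraries, 243, 189 and 270 in model, 237, 337 and 310 in QJSB, and 184, 218 and 198 in leucogen. Every normal library lay above every model and every leucogen library, QJSB overlapped both normal and model, and QJSB and leucogen did not overlap.

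Cxcr2, the release receptor, stood at 236, 245 and 242 CPM in normal, 24.6, 103 and 144 in model, 58.9, 290 and 273 in QJSB, and 259, 280 and 264 in leucogen. The normal and leucogen mice were closely alike within their groups (SD 4.28 and 10.8 CPM), whereas model and QJSB each held 1 low library, model 1 and QJSB 1. These are the same libraries that were lowest in late neutrophil markers.

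Fpr1, the high-affinity receptor for formyl peptides, had the widest range. It was at 140, 130 and 123 CPM in normal, 7.45, 40.6 and 10.3 in model, 4.35, 86.6 and 47.8 in QJSB, and 85.6, 119 and 95.9 in leucogen. All normal libraries lay above all libraries of the other 3 groups, and QJSB 1 had the lowest value of all 12.

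Fpr2, which also binds annexin A1 and serum amyloid A, was the member that stood highest in leucogen. Its values were 167, 142 and 132 CPM in normal, 39.3, 71.4 and 42.3 in model, 33.0, 105 and 63.9 in QJSB, and 336, 177 and 325 in leucogen. Leucogen lay above every other library, QJSB lay below every normal library and overlapped model, and leucogen 2 was lower than the other two leucogen mice.

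C5ar1 did not separate the treated groups. It was at 60.9, 61.2 and 67.2 CPM in normal, 22.3, 48.6 and 54.5 in model, 34.9, 12.4 and 117 in QJSB, and 69.5, 12.5 and 73.9 in leucogen. QJSB 2 and leucogen 2 were far below the other mice of their groups, with 215 and 172 counts. The other leucogen libraries were 5.56 and 5.91 times higher than leucogen 2. Late neutrophil markers were not low in these libraries (10.21 and 10.60). The chromosomal neighbour C5ar2 was at 9.66 CPM in QJSB 2, between 5.58 and 22.6 in the other QJSB mice. In leucogen 2 C5ar2 was at 23.5 CPM, above 18.7 and 13.1 in the other leucogen mice. In unscaled counts, the neighbour Ccdc9 had 575 and 386 in QJSB 2 and leucogen 2, where the other libraries had 276 to 533. The neighbour Inafm1 had 63 and 45, where the others had 40 to 83. The cause of the low C5ar1 values was not tested.

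Ptafr, the receptor of platelet-activating factor, was the least abundant member by FPKM in 3 of the 4 groups. In CPM it was at 35.8, 37.4 and 40.4 CPM in normal, 19.1, 31.1 and 26.9 in model, 21.4, 50.4 and 39.5 in QJSB, and 39.4, 52.5 and 45.9 in leucogen. Model lay below normal and leucogen without overlap, and QJSB overlapped all of these groups.

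**Figure D2:**
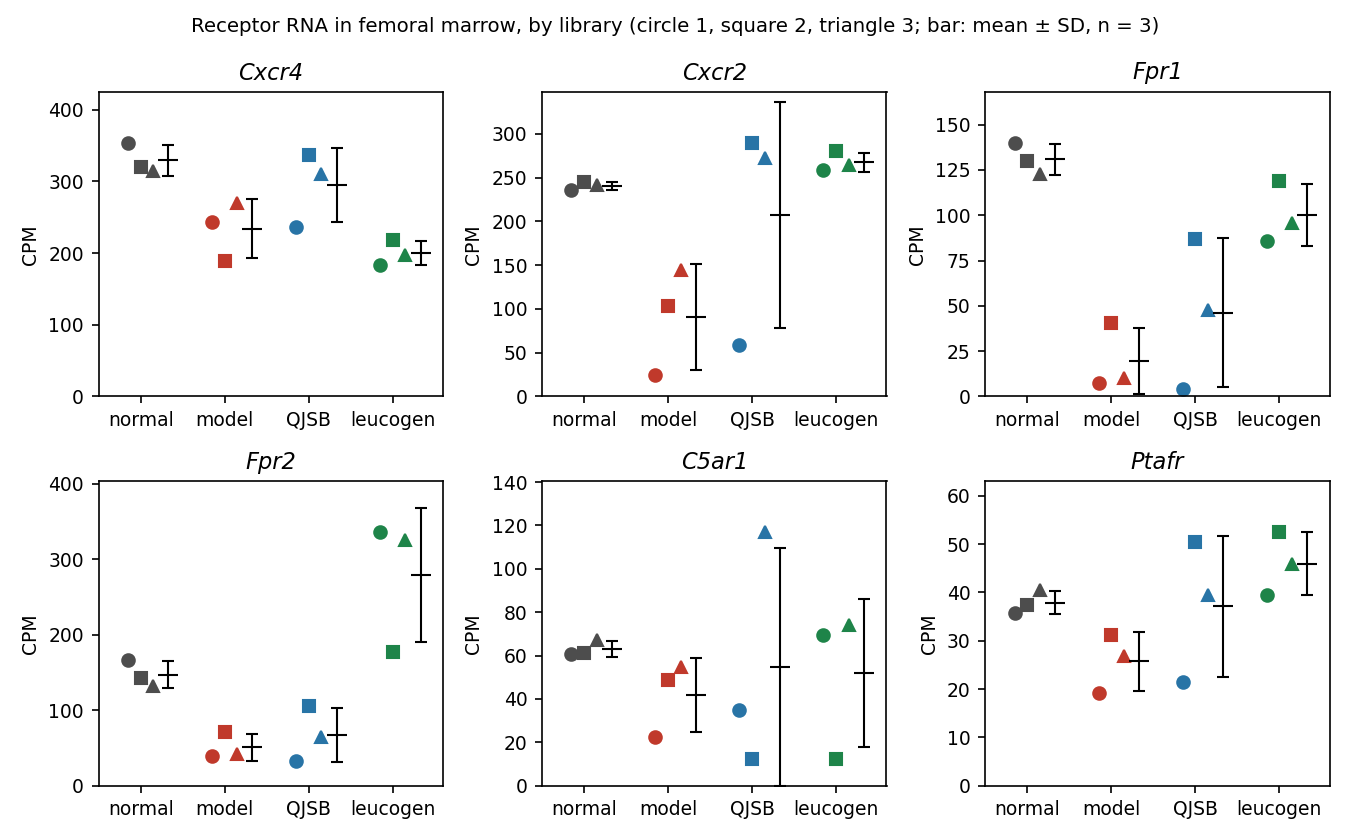
CPM of each receptor in the 12 libraries, from 0 on each vertical axis (circle, square and triangle are mice 1, 2 and 3 and bars are mean ± SD, n = 3). For all 6 genes the model libraries lie below the normal ones, Fpr2 is highest in leucogen (177 to 336 CPM), and QJSB 1 and model 1 are the lowest libraries of their groups for Cxcr2 and Fpr1.

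The order of the receptors by FPKM differed between groups. In normal marrow it was Cxcr4 (119 ± 7.0), Fpr1 (97.3 ± 5.7), Fpr2 (71.5 ± 8.1), Cxcr2 (45.0 ± 1.03), C5ar1 (12.3 ± 0.78) and Ptafr (10.2 ± 0.72), and no neighbours in this order overlapped (SD, n = 3). In model, Cxcr4 (92.4 ± 15.9) stood apart from the rest, and the next in order overlapped one after another from Fpr2 (27.0 ± 9.18) and Cxcr2 (18.0 ± 11.6) to Fpr1 (15.6 ± 14.7), C5ar1 (8.79 ± 3.32) and Ptafr (7.52 ± 1.58). QJSB had the same first place, Cxcr4 at 108 ± 11.1, with Cxcr2 (38.1 ± 22.4), Fpr1 (33.3 ± 28.8), Fpr2 (32.4 ± 15.4), C5ar1 (10.9 ± 10.7) and Ptafr (9.99 ± 3.31) overlapping in turn. In leucogen Fpr2 came first (133 ± 44.6), overlapping Fpr1 (72.0 ± 10.5), which overlapped Cxcr4 (70.6 ± 4.22), and Cxcr2 followed apart from its neighbours at 48.5 ± 1.54, above Ptafr (12 ± 1.36) and C5ar1 (9.95 ± 6.6), which overlapped.

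The formyl peptide receptors did not keep their ratio. Fpr1 FPKM divided by Fpr2 FPKM was 1.28, 1.39 and 1.42 in the normal libraries, 0.288, 0.866 and 0.372 in model, 0.201, 1.26 and 1.14 in QJSB, and 0.388, 1.02 and 0.450 in leucogen. Fpr1 exceeded Fpr2 in every normal library and in no model library. QJSB 2, QJSB 3 and leucogen 2 were the only treated libraries with Fpr1 above Fpr2.

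After cyclophosphamide, RNA of both formyl peptide receptors was lower in the model than in the normal group. Fpr1 fell 6.75-fold (log2 fold change -2.76 ± 0.65 SE, edgeR adjusted p = 0.0163) and Fpr2 fell 2.87-fold (-1.52 ± 0.24, adjusted p = 0.00139). These are the 2 of 6 members that passed the adjusted cutoff, a change of over 1.5-fold in either direction and a Benjamini-Hochberg adjusted p under 0.05, where 35.1% of the 14752 genes tested passed it and 19% did so as lower. Without a filter on low counts the Fpr1 call was lost (adjusted p = 0.0644). In bulk marrow, fewer cells that carry a receptor and less of its RNA per cell cannot be told apart.

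Cxcr2 was 2.66-fold lower in model (log2 fold change -1.41 ± 0.57, adjusted p = 0.0942), with model 1 as its lowest library. Without that mouse it was -0.95 with an adjusted p of 0.00302, and with another mouse left out the adjusted p reached 0.188. Cxcr4 (-0.49 ± 0.15, adjusted p = 0.0298) and Ptafr (-0.56 ± 0.19, adjusted p = 0.0442) were lower by folds just under the cutoff, and passed it without model 3 for Cxcr4 (-0.60) and without model 2 for Ptafr (-0.70). C5ar1 was at -0.59 ± 0.30 (adjusted p = 0.151). All 6 members had model libraries wholly below normal ones, as did 28.5% of the genes tested. The median log2 fold change of the members was -1, beside 0.02 over all genes tested.

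Leucogen-treated marrow held more RNA of Fpr2 and Ptafr than model marrow. Fpr2 rose 5.51-fold (log2 fold change 2.46 ± 0.33, adjusted p = 0.00379) and Ptafr 1.80-fold (0.84 ± 0.20, adjusted p = 0.0165), so 2 of 6 members passed the adjusted cutoff, beside 23.1% of 14184 genes and 11.6% as higher. The Ptafr call was lost without leucogen 2 (0.75, adjusted p = 0.0553) or without leucogen 3 (0.84, adjusted p = 0.0661).

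Fpr1 was 5.19-fold higher in leucogen than in model at the edge of the test (log2 fold change 2.38 ± 0.68, adjusted p = 0.0509). It passed under 5 other ways of processing the data, with adjusted p between 0.00923 and 0.0482, but not under the rest. Among the 5 was a block for the replicate number, though same-numbered mice of these groups did not all deviate together. The adjusted p of Fpr1 was 0.000747 without model 2, and reached 0.158 with another mouse left out. Cxcr2 was 2.98-fold higher (1.58 ± 0.60, adjusted p = 0.103), and 1.14 with an adjusted p of 0.00647 without model 1. With another mouse left out, the adjusted p of Cxcr2 reached 0.208. Cxcr4 (-0.22 ± 0.16, adjusted p = 0.335) and C5ar1 (0.32 ± 0.71, adjusted p = 0.764) had no detectable difference. Cxcr2, Fpr1, Fpr2 and Ptafr had leucogen libraries wholly above those of model, 4 of 6 members beside 22.2% of the genes tested, and the median over members was 1.21 beside -0.05 over all genes. The 14 late neutrophil markers had a median of 2.33 in this comparison, with 9 higher, and the part of that shift in the receptor values was not tested.

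QJSB-treated marrow could not be separated from model marrow for any receptor without use of the replicate numbers. The log2 fold changes were 1.18 ± 0.78 for Cxcr2 (adjusted p = 0.768), 0.32 ± 0.20 for Cxcr4 (0.767), 1.23 ± 1.13 for Fpr1 (0.821), 0.38 ± 0.41 for Fpr2 (0.840), 0.38 ± 0.78 for C5ar1 (0.919) and 0.51 ± 0.32 for Ptafr (0.767). All 6 point estimates were above 0 and every receptor overlapped between the groups, where 9.8% of genes did not. None of the 6 passed the adjusted cutoff in edgeR, where 0% of 14486 genes passed it, 723 genes had an unadjusted p under 0.05 and DESeq2 called 8 genes. The median over members was 0.45 beside -0.02 over all genes.

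Mice with the same number deviated together in the QJSB and model groups (correlations of 0.453, 0.136 and 0.103 over genes for numbers 1, 2 and 3). This pairing rests on the data alone, no label states it, and not every mouse correlated best with the mouse of its own number. Same-numbered mice of model and leucogen did not all deviate together (0.125, -0.103 and -0.0217), although QJSB correlated with both groups. The block was chosen from the same expression values, so a call made with it is not independent support. With the number as a block, Cxcr2 was higher in QJSB by 1.21 on the log2 scale and passed the cutoff (adjusted p = 0.0378), as 1 of 18 genes called. Within the numbers, Cxcr2 was at 58.9 against 24.6 CPM, 290 against 103 and 273 against 144, higher in QJSB in 3 of 3. Late neutrophil markers were likewise higher in QJSB within each number (7.33 against 6.67, 10.21 against 8.92 and 9.64 against 8.16), and their part in the Cxcr2 difference was not tested.

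**Figure D3:**
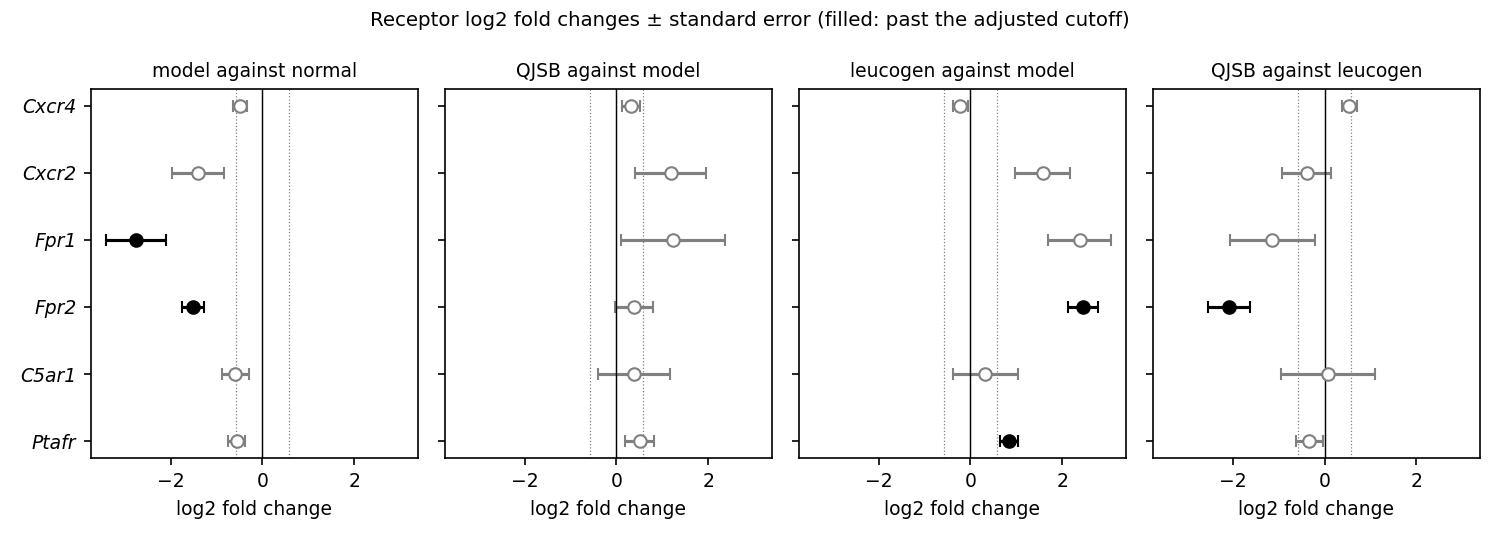
Log2 fold change of each receptor with its standard error in 4 comparisons (filled points passed a 1.5-fold change, shown by dotted lines, and an adjusted p under 0.05). Fpr1 and Fpr2 are filled in model against normal, Fpr2 and Ptafr in leucogen against model, Fpr2 in QJSB against leucogen, and no receptor in QJSB against model.

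Each drug group was also compared with normal marrow. The comparisons of both drugs share the normal libraries. In QJSB, Fpr2 was below normal by 2.17-fold (log2 fold change -1.12 ± 0.36, adjusted p = 0.0388), the only 1 of 6 members past the cutoff where 37.9% of 14817 genes passed and 19.9% did so as lower. That call was lost when any normal mouse or QJSB 3 was left out (adjusted p of 0.0714 to 0.109), or without a filter on low counts (0.0934). Fpr1 was at -1.50 ± 0.83 (adjusted p = 0.181), with QJSB wholly below normal, and -0.96 with an adjusted p of 0.0195 without QJSB 1. The others were at -0.21 ± 0.51 for Cxcr2, -0.15 ± 0.15 for Cxcr4, -0.19 ± 0.69 for C5ar1 and -0.02 ± 0.28 for Ptafr, with adjusted p from 0.444 to 0.961. C5ar1 reached -1.39 (adjusted p = 0.0381) without QJSB 3, and Cxcr2 turned to 0.23 (adjusted p = 0.0428) without QJSB 1, a fold under the cutoff. Fpr1 and Fpr2, 2 of 6 members, lay wholly below normal, as did 29.9% of the genes tested, and the members' median was -0.20 beside 0.02 over all genes.

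In leucogen, Cxcr4 fell 1.62-fold below normal (log2 fold change -0.70 ± 0.09, adjusted p = 0.000126), a call that held in every alternative run. Fpr2 was 1.93-fold above normal (0.95 ± 0.27, adjusted p = 0.0284), a call that was lost without normal 2 or 3 or leucogen 1 or 3 (adjusted p of 0.0701 to 0.0959), without a filter on low counts (0.0750) or with all 12 libraries in one fit (0.0816). These were 2 of 6 members, 1 in each direction, where 37.7% of 14637 genes passed, 17.8% as higher and 19.8% as lower. Fpr1 was lower by a fold under the cutoff (-0.37 ± 0.12, adjusted p = 0.0245), and Cxcr2 (0.17 ± 0.08, adjusted p = 0.0806) and Ptafr (0.30 ± 0.12, adjusted p = 0.0588) were slightly above normal without passing. C5ar1 was at -0.26 ± 0.69 (adjusted p = 0.784). Cxcr2 and Fpr2 lay wholly above normal, beside 29.6% of genes, and Cxcr4 and Fpr1 wholly below, beside 32.2%, with a median over members of -0.04 and of -0.01 over all genes.

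The drugs were then compared directly. Fpr2 was 4.23-fold lower in QJSB than in leucogen (log2 fold change -2.08 ± 0.45, adjusted p = 0.0154), the 1 of 6 members past the cutoff where 24.6% of 14266 genes passed, 11.7% as lower. Same-numbered mice of these groups also deviated together (correlations of 0.174, 0.157 and 0.110), and with the number as a block Fpr2 was at -2.18 with an adjusted p of 0.0757. The call was also lost without leucogen 1 (adjusted p = 0.0510) or leucogen 3 (0.0532), or without a filter on low counts (0.0549). Cxcr4 was higher in QJSB by a fold just under the cutoff (0.54 ± 0.16, adjusted p = 0.0385), and passed it without QJSB 1 (0.66, adjusted p = 0.00250) and when scaled by library totals or by limma (0.61 in each). Cxcr2 (-0.39 ± 0.54, adjusted p = 0.626), Fpr1 (-1.14 ± 0.93, 0.406), C5ar1 (0.07 ± 1.02, 0.968) and Ptafr (-0.33 ± 0.29, 0.423) overlapped. Cxcr4 was the 1 member wholly higher in QJSB and Fpr2 the 1 wholly lower, beside 25.7% and 23.2% of genes, and the median over members was -0.36 beside 0.03 over all genes.

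The balance of Cxcr2 to Cxcr4, taken as log2 of the ratio of their FPKM, was highest in leucogen. It was -1.54, -1.35 and -1.33 in the normal libraries, -4.24, -1.83 and -1.86 in model, -2.96, -1.18 and -1.15 in QJSB, and -0.47, -0.60 and -0.55 in leucogen. Every leucogen library lay above every other library and every model library lay below every normal one, and QJSB 2 and 3 lay above normal while QJSB 1 lay within the range of model. With 3 mice a group the smallest p of the exact two-sided permutation test is 0.1. The mean difference was 2.11 for leucogen against model, 0.87 for leucogen against normal, -1.24 for model against normal and -1.22 for QJSB against leucogen, each with the exact permutation p at this smallest value. It was 0.88 for QJSB against model (exact permutation p = 0.5) and -0.35 for QJSB against normal (exact permutation p = 1). This test does not use the replicate numbers, and within them QJSB was above model in 3 of 3 (-2.96 against -4.24, -1.18 against -1.83 and -1.15 against -1.86). Model 1 and QJSB 1 weighed on these means. Without model 1 the difference was -0.44 for model against normal, 1.31 for leucogen against model and 0.09 for QJSB against model, and without QJSB 1 it was 1.48 for QJSB against model, 0.25 for QJSB against normal and -0.62 for QJSB against leucogen. Without QJSB 2 or 3 it was 0.59 and 0.58 for QJSB against model and -0.65 and -0.66 for QJSB against normal. In leucogen Cxcr4 lay below its normal level and Cxcr2 near it, as given above. The ratio is of bulk marrow, where B cell precursors and stem cells also carry CXCR4. The pre-B cell marker mean was 6.08 in normal, 1.59 in model, -0.20 in QJSB and -0.75 in leucogen. The stem and progenitor mean was 4.35, 4.92, 4.93 and 4.40 in the same order. The part of these cells in the ratio was not tested.

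**Figure D4:**
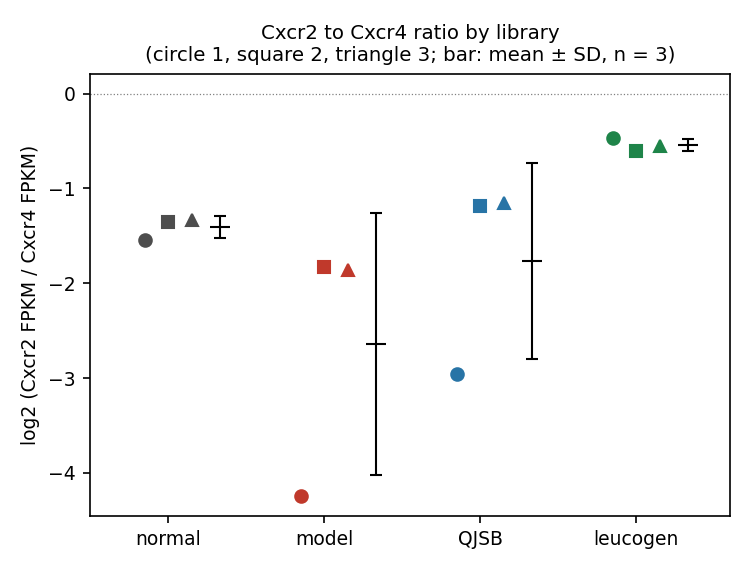
Log2 of the Cxcr2 to Cxcr4 FPKM ratio in each library, where 0 (dotted) is equal FPKM (circle, square and triangle are mice 1, 2 and 3 and bars are mean ± SD, n = 3). Leucogen lies at -0.60 to -0.47 above all other libraries, and model 1 (-4.24) and QJSB 1 (-2.96) are the lowest.

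Since late neutrophil markers differed between groups, each receptor was also expressed as its log2 CPM minus the mean log2 CPM of those 14 genes. On that scale Fpr1 was lower in model than in normal, at -4.03 ± 0.65 against -2.43 ± 0.04 (SD, n = 3, difference -1.60, exact permutation p = 0.1, the smallest possible), with no overlap. Fpr2 (difference -0.02, exact permutation p = 1) and Cxcr2 (-0.20, exact permutation p = 0.6) overlapped, and Ptafr was higher in model by 0.97 (exact permutation p = 0.1). For leucogen against model the differences were -2.77 for Cxcr4, -2.52 for C5ar1, -1.71 for Ptafr and -0.66 for Cxcr2, each without overlap (exact permutation p = 0.1), while Fpr1 (0.18) and Fpr2 (-0.12) overlapped (exact permutation p = 0.9 and 1). Without model 1 the Ptafr difference in model against normal was 0.54, and without model 3 the Cxcr2 difference in leucogen against model was -0.28. Without leucogen 2 the C5ar1 difference in leucogen against model was -1.62. The subtracted mean of the late markers was itself 7.92 in model and 10.48 in leucogen. Cxcr4 and C5ar1 had no detectable difference in CPM between these groups, so their relative differences mostly restate the shift of the markers. Relative Cxcr4 was -2.84, -2.83 and -2.84 in the leucogen mice and -1.07, -1.16 and -1.08 in the normal mice.

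These relative values depend on the markers. Against the 10 mature surface and cytokine markers, the leucogen against model differences were 1.55 for Cxcr2, 2.39 for Fpr1, 2.09 for Fpr2, 0.50 for Ptafr, -0.57 for Cxcr4 and -0.32 for C5ar1, so Cxcr2, Fpr2 and Ptafr changed sign and Cxcr4, C5ar1 and Fpr1 did not. Fpr1 in model against normal was -2.27 on that scale, of the same sign as in CPM and against the late markers.

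**Figure D5:**
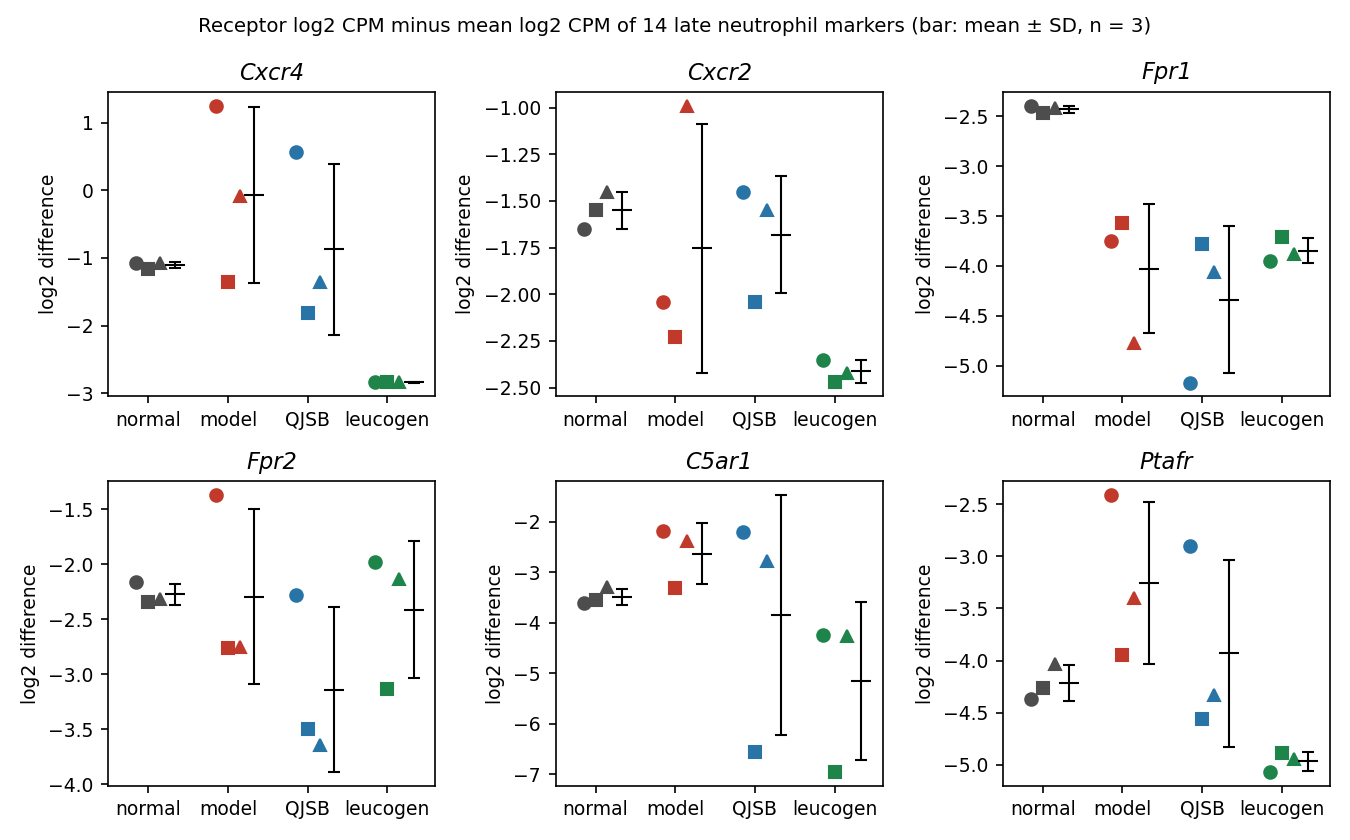
Log2 CPM of each receptor minus the mean log2 CPM of 14 late neutrophil markers, by library (circle, square and triangle are mice 1, 2 and 3 and bars are mean ± SD, n = 3; each panel has its own vertical scale). Fpr1 is highest in normal (-2.47 to -2.40), and Cxcr4 is lowest in leucogen (-2.84 to -2.83), where the subtracted markers are highest.

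The genes whose pattern over the 12 libraries was most like each receptor were found by the root mean square difference of centred log2 CPM among 8782 genes with a mean of at least 10 CPM. This measure grows with a gene's own spread, so it is not comparable between receptors. For Cxcr2, whose own SD over libraries was 1.07, they were Mxd1 (0.23), Il1f9 (0.24) and Mmp25 (0.31), where Mmp25 encodes a membrane-bound matrix metalloprotease of leucocytes. For Fpr1 (own SD 1.69) they were Dhrs9 (0.36), Mmp9 (0.48), the gelatinase of late neutrophil granules, and Adam8 (0.56). For Fpr2 (1.08) they were Samd9l (0.31), Tmcc1 (0.31) and the clone-named gene model RP23-385F8.3 (0.33). For Ptafr (0.44) they were Acsl1 (0.09), Ampd3 (0.12) and Hipk2 (0.13), and for Cxcr4 (0.32) Phf2 (0.11), Ctbp1 (0.11) and Prex1 (0.12), an activator of Rac downstream of such receptors. For C5ar1 (0.98) they were Ttc4 (0.75), Lrrc57 (0.78) and Rab12 (0.78).

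The ligands of these receptors differed in their own way. Cxcl12, the retention chemokine, was at 136, 121 and 137 CPM in normal, 117, 46.6 and 41.3 in model, 98.9, 36.0 and 31.5 in QJSB, and 85.4, 84.4 and 96.9 in leucogen. It passed as lower only in QJSB against normal (log2 fold change -1.23 ± 0.42, adjusted p = 0.0477). Model 1 and QJSB 1, the low libraries for Cxcr2, held the most Cxcl12 of their groups. These libraries were also the highest of their groups in stromal and endothelial markers. The 8 markers summed to 705 CPM in model 1, and to 276 and 229 in model 2 and 3. They summed to 869 CPM in QJSB 1, and to 224 and 225 in QJSB 2 and 3. The part of stromal cells in the Cxcl12 values was not tested. The CXCR2 ligands Cxcl1 and Cxcl2 were barely detected, at 0 to 5 and 0 to 10 counts per library, so no difference in them was detectable at this depth. Ppbp, whose product is cut to another CXCR2 ligand and is known from platelets and megakaryocytes, had 584 to 3932 counts and did not pass in any comparison.

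Anxa1, which encodes annexin A1, an abundant leucocyte protein that binds formyl peptide receptors, was at 2670, 2440 and 2140 CPM in normal, 1270, 5050 and 2960 in model, 1420, 5900 and 5150 in QJSB, and 8890, 10800 and 11900 in leucogen. It rose 3.42-fold from model to leucogen (1.77 ± 0.45, adjusted p = 0.0245) and 4.41-fold from normal to leucogen (2.14 ± 0.14, adjusted p = 1.08e-06), where Fpr2 was highest too. Saa3, of the serum amyloid A family, had 0, 0 and 1 counts in the normal libraries, 359 to 1017 in model, 463 to 578 in QJSB and 25 to 102 in leucogen. In each comparison with normal, Saa3 passed the filter on low counts only through the treated group. Its calls as higher than normal in all 3 treated groups were thus set in advance and add nothing to these counts. Saa3 was lower in leucogen than in model by 11-fold (-3.46 ± 0.68, adjusted p = 0.0159). Hc, which encodes complement C5, had 0, 7 and 4 counts in model and 16, 28 and 23 in leucogen. It passed the filter on low counts only in comparisons with leucogen, where it was high, so its call there is no support for a difference. Mif, a cytokine that also binds CXCR2 and CXCR4, rose in model (1.81 ± 0.30, adjusted p = 0.00178) and in QJSB (1.64 ± 0.27, adjusted p = 0.00215) against normal and was lower in leucogen than in model (-2.16 ± 0.28, adjusted p = 0.00239).

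Over the 14 listed ligands and ligand makers, 3 of 9 tested rose and 0 fell in model against normal, 0 of 9 changed in QJSB against model, and 2 of 10 rose and 3 fell in leucogen against model. In QJSB against normal 3 of 9 rose and 1 fell, in leucogen against normal 5 of 10 rose and 1 fell, and in QJSB against leucogen 3 of 10 were higher and 1 lower. Hc is 1 of those counted as higher in leucogen against model and against normal. Saa3 is 1 of those counted as higher in each comparison with normal. The median log2 fold changes, in the same order of comparisons, were 0.36, -0.30, 0.42, 0.49, 0.81 and -0.48. The shares of all genes tested that passed in either direction were, in that order, 35.1%, 0%, 23.1%, 37.9%, 37.7% and 24.6%. Shares of a list near these are not a result about the list, and the same holds for the lists that follow.

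Among 25 other chemoattractant receptors, 18 were tested against normal and 15 in the other comparisons, since Ccr7, Cxcr5 and Cxcr6 passed the filter on low counts only through the normal group and so had to differ from it. In model against normal 4 rose and 8 fell, beside 35.1% of all genes in either direction. Cxcr5, a receptor of B cells, passed the filter only against normal, with 13.7, 20.2 and 17.5 CPM there and at most 0.577 CPM in a treated library. Ccr3, a receptor of eosinophils, was tested in every comparison and fell (log2 fold change -4.98 ± 0.28, adjusted p = 1.05e-05). B cell and eosinophil markers were lower too, as given above, and their part was not tested. Ccr3 is itself among the eosinophil markers, so they are not a separate measure beside it. Ccr1 was the 1 of 15 that passed in leucogen against model, beside 23.1% of all genes, and rose 2.42-fold (1.27 ± 0.23, adjusted p = 0.00699). Ccr1, a receptor of myeloid cells, was also lower in QJSB than in leucogen (-1.15 ± 0.32, adjusted p = 0.0321). In QJSB against normal 3 rose and 7 fell, in leucogen against normal 3 rose and 10 fell, beside 37.9% and 37.7% of all genes, and in QJSB against model 0 changed, beside 0%. The list medians were -0.83 for model, -0.62 for QJSB and -0.70 for leucogen against normal, 0.20 and 0.01 for QJSB and leucogen against model, and 0.19 for QJSB against leucogen, where 1 was higher and 2 lower, beside 24.6%. The other formyl peptide receptor genes Fpr-rs3, Fpr-rs4, Fpr-rs6 and Fpr-rs7 had at most 1 count in a library.

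Of 23 genes for G proteins, phosphoinositide kinases, Rac and Src family kinases, 4 rose and 1 fell in model against normal, 0 changed in QJSB against model and 4 rose in leucogen against model, among them the Src family kinase Fgr (1.26 ± 0.17, adjusted p = 0.00282). Against normal, 10 rose in QJSB and 9 in leucogen with none falling, led by Rac2 in QJSB (1.18 ± 0.29, adjusted p = 0.0124) and Plcb2 in leucogen (1.35 ± 0.08, adjusted p = 5.75e-07). In QJSB against leucogen 3 were higher and 1, Gng5, lower (-0.98 ± 0.21, adjusted p = 0.0103). All genes passed at 35.1% in model, 37.9% in QJSB and 37.7% in leucogen against normal, at 0% and 23.1% in QJSB and leucogen against model, and at 24.6% between the drugs. Medians in the order model, QJSB and leucogen against normal were 0.13, 0.50 and 0.41, and for QJSB and leucogen against model and QJSB against leucogen 0.22, 0.16 and 0.04.

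Of 13 tested genes that switch off such receptors or their G proteins, Arrb2, which encodes the adaptor beta-arrestin 2, was higher in leucogen than in model and normal. It rose 2.32-fold in leucogen against model (1.22 ± 0.22, adjusted p = 0.00702), 2.49-fold in leucogen against normal (1.32 ± 0.09, adjusted p = 1.83e-06) and 2.14-fold in QJSB against normal (1.10 ± 0.36, adjusted p = 0.0391), while in QJSB against model it was at 0.98 ± 0.41 (adjusted p = 0.767). Rgs18, a regulator of G protein signalling in leucocytes and platelets, rose 2.04-fold in leucogen against model (1.03 ± 0.23, adjusted p = 0.0136). Against normal, Adrbk2 passed as higher in model (1.07 ± 0.12), QJSB (1.10 ± 0.13) and leucogen (1.38 ± 0.11). Rgs2 passed as lower than normal in model (-1.09 ± 0.28) and QJSB (-1.05 ± 0.19). The list had 2 higher and 2 lower in model against normal, 4 and 0 in leucogen against model, 3 and 4 in QJSB against normal, 3 and 2 in leucogen against normal, 0 and 2 in QJSB against leucogen, and 0 in QJSB against model, with medians of -0.23, 0.30, 0.07, 0.15, -0.23 and 0.17. Of all genes, 35.1%, 23.1%, 37.9%, 37.7%, 24.6% and 0% passed in these comparisons.

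Of 15 tested genes of retention, adhesion and mobilisation, the proteases of early granules and those of late granules went in opposite directions. Elane (neutrophil elastase, 2.67 ± 0.24, adjusted p = 9.25e-05) and Ctsg (cathepsin G, 3.66 ± 0.23, adjusted p = 1.56e-05) rose in model against normal, while Mmp9 fell 6.90-fold (-2.79 ± 0.64, adjusted p = 0.0152). In leucogen against model Mmp9 rose 6.82-fold (2.77 ± 0.68, adjusted p = 0.0334) and Mmp8, the neutrophil collagenase, 3.39-fold (1.76 ± 0.33, adjusted p = 0.00921), and Elane (-0.96 ± 0.25, adjusted p = 0.0214) and Ctsg (-0.70 ± 0.18, adjusted p = 0.0227) fell. Elane, Ctsg, Mmp8 and Mmp9 are also among the early and late neutrophil markers, so they are not a separate measure of those cells.

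Mmp9 stood at 557, 547 and 630 CPM in normal, 20.8, 143 and 87.2 in model, 36.1, 549 and 367 in QJSB, and 524, 654 and 521 in leucogen, with the same low libraries as Cxcr2 and Fpr1. Csf3r, the receptor of the granulocyte growth factor that mobilises neutrophils, was at 405, 441 and 363 CPM in normal, 164, 217 and 360 in model, 221, 333 and 328 in QJSB, and 319, 327 and 305 in leucogen, and did not pass in any comparison, while its ligand gene Csf3 had 0 to 1 counts. Vcam1, the adhesion molecule that anchors leucocytes to stroma, was lower than normal in leucogen (-0.64 ± 0.10, adjusted p = 0.00032). By folds under the cutoff it was also lower in model (-0.58 ± 0.18, adjusted p = 0.0286) and QJSB (-0.51 ± 0.12, adjusted p = 0.0111). Dpp4 passed as lower than normal in QJSB (-3.15 ± 0.28) and leucogen (-2.87 ± 0.10). The list had 3 higher and 4 lower in model against normal, 0 in QJSB against model, 2 and 3 in leucogen against model, 4 and 2 in QJSB against normal, 4 and 3 in leucogen against normal, and 3 and 0 in QJSB against leucogen. Its medians in that order were -0.19, 0.24, -0.04, -0.03, -0.12 and 0.17, and the shares of all genes that passed were 35.1%, 0%, 23.1%, 37.9%, 37.7% and 24.6%.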

How the data were processed

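The authors removed ribosomal RNA from total RNA of femoral marrow, made strand-specific libraries, sequenced them on a HiSeq 2500, filtered reads (Seqtk) and aligned them to GRCm38.p4 (HISAT2). The counting program and annotation version are not given in the sources used here. The deposited table holds whole-number counts per gene without normalization and the authors' FPKM, per length of transcript and total of fragments, and 0 sample columns were left unused. Groups come from the sample titles and the reading of headings was also compared with group means given by the study. Library totals of 11172547 to 18545198 counts limit counting error only.

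Each comparison was fitted to its 6 libraries with edgeR 4.0.16 in R 4.3.3 (filterByExpr, TMM, robust glmQLFit and glmQLFTest, Benjamini-Hochberg adjustment over all genes tested) and checked on simulated counts. Log2 CPM used a prior count of 2. Single ratios and relative values were compared by exact two-sided permutation tests. Alternatives were DESeq2 1.42.0, scaling by its size factors or by library totals, no filter, a minimum of 10 counts per library, a joint fit of all 12 libraries, a block for the replicate number, limma 3.58.1 on log2(FPKM + 0.1), the mature in place of the late neutrophil markers, and each library left out. Replicate numbers were taken as pairing where the deviations of all 3 same-numbered libraries from their group means correlated over 0.1 (QJSB with model and with leucogen), which rests on the data alone.

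The members and gene lists were chosen with earlier results of these data known. Genes named are the 6 receptors and a set of ligand and mobilisation genes named whatever their values (Cxcl12, Cxcl1, Cxcl2, Saa3, Anxa1, Hc, Vcam1, Csf3r, Elane, Ctsg and Mmp9). Some, but not all, of the up to 3 genes of each pathway list with the largest change past the adjusted cutoff are also named. The 3 genes most like each receptor are named too, without Gm, Rik or accession-named gene models and antigen receptor segments. The neighbours of C5ar1 and Ppbp were named after their values were seen. Promoters are from RefSeq on GRCm38.p6 (6 of 6 genes matched), and shared runs from GENCODE M21 transcripts.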

Additional observations from a re-analysis of the deposited data

Results flagged for a closer look

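Fpr2 was flagged because the effects of the drugs on mice given cyclophosphamide differed in the test of the difference itself. Fpr2 was at -2.08 on the log2 scale in QJSB against leucogen (edgeR adjusted p = 0.0154), with 33.0, 105 and 63.9 CPM in QJSB and 336, 177 and 325 CPM in leucogen, lower in 3 of 3 QJSB mice than in every leucogen mouse. With the replicate number as a block the value was -2.18 with an adjusted p of 0.0757.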

How the results depend on the processing

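Under settings other than leaving out a mouse, 269 of 288 values of single receptors kept their direction and their side of the cutoff, and 184 of 216 did so with a mouse left out. The Cxcr2 to Cxcr4 differences stayed within 1 SD in 12 of 12 and 36 of 36, an SD that model 1 and QJSB 1 widen. With single mice left out they ranged from -1.64 to -0.44 in model against normal, 0.09 to 1.48 in QJSB against model, 1.31 to 2.51 in leucogen against model, -0.66 to 0.25 in QJSB against normal, 0.80 to 0.91 in leucogen against normal and -1.53 to -0.62 in QJSB against leucogen. The cause of each change below was not tested.

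With the replicate number as a block, which pairs QJSB with model and with leucogen, 18 genes and 1 receptor (Cxcr2, 1.21) passed in QJSB against model and 0 receptors in QJSB against leucogen, and C5ar1 turned to -0.01 and -0.13. In the other comparisons the block changed no call except Fpr1 in leucogen against model (2.76, adjusted p = 0.0148), where same-numbered mice did not all deviate together. DESeq2 called 8 genes in QJSB against model. Without a filter on low counts, 1 receptor passed in model against normal (Fpr1 had an adjusted p of 0.0644), 0 in QJSB against normal, 1 in leucogen against normal and 0 in QJSB against leucogen, and with all 12 libraries in one fit 1 passed in leucogen against normal. Scaling by library totals and limma each gave 2 receptors in QJSB against leucogen, Cxcr4 (0.61) with Fpr2, and limma turned C5ar1 to -0.16 in QJSB against model, -0.12 in leucogen against model and -0.05 in QJSB against leucogen. Scaling by totals moved the median of all genes in leucogen against model from -0.05 to -0.22, the higher calls from 1640 of 3275 to 1151 of 3806, and in model against normal the median from 0.02 to 0.14 and the higher calls from 2368 of 5171 to 3026 of 5372, and it turned no receptor. In QJSB against leucogen the higher calls went from 1836 of 3511 to 2088 of 3449.

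With single mice left out, the genes called ranged from 0 to 3 in QJSB against model (3 without QJSB 1), from 1239 (without leucogen 3) to 3953 in leucogen against model, and from 1544 (without leucogen 3) to 3585 in QJSB against leucogen. Receptors called ranged from 1 to 3 in leucogen against model, from 0 to 2 in QJSB against normal, from 1 to 2 in leucogen against normal and from 0 to 2 in QJSB against leucogen. C5ar1 ranged from -0.82 to 0.85 in QJSB against model, -0.02 to 0.80 in leucogen against model, -1.39 to 0.28 in QJSB against normal, -0.62 to 0.19 in leucogen against normal and -1.16 to 0.55 in QJSB against leucogen. Fpr2 in QJSB against model ranged from -0.08 to 0.71, Cxcr2 from -0.53 to 0.23 in QJSB against normal and -0.70 to 0.04 in QJSB against leucogen, and Ptafr from -0.30 to 0.26 in QJSB against normal. Relative to markers, 51 of 72 other settings stayed within 1 SD and 21, all from exchanging the marker list, did not.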
